A study of Homo sapiens with 4 samples.

Results

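The ribosomal protein genes encode the proteins of the cytoplasmic ribosome, the machine that translates every mRNA of the cell. The members described here are the genes of the array whose name is RPL or RPS followed by a number. A single letter A, X, Y or L may follow it, with or without a further number. RPLP0, RPLP1, RPLP2 and RPSA were added, and pseudogenes were left out. By this rule 86 of the 17938 genes with a symbol that were tested belonged to the group, 52 of the large (60S) and 34 of the small (40S) subunit. They were chosen by name and not by any measured value. Among them were the 7 paralogs RPL3L, RPL7L1, RPL10L, RPL22L1, RPL26L1, RPL39L and RPS27L, which each resemble a core gene, and 2 members that lie on the Y chromosome, which are counted without their levels.

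Gene expression was measured in THP1, an established monocytic cell line of acute myeloid leukemia FAB type M5 that carries the fusion gene MLL-AF9. All cells received siRNA by repeated transfection and were harvested on day 8. The paper states that serum was reduced for the last part of the experiment. The knockdown group consisted of 2 arrays, 1 for siRNA3 and 1 for siRNA4, both directed at MLL-AF9, and the control group of 2 arrays, 1 for each of the non-targeting siRNA1 and siRNA2. All 4 samples come from 1 cell line. The RNA on each array was a pool of several independent experiments, so that the spread between arrays holds the difference between siRNAs and pools and not that between single experiments. The 4 single-colour arrays lay on 1 slide, and since knockdown and control arrays held different positions on it, treatment and position cannot be told apart.

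A ribosome holds 1 copy of nearly every ribosomal protein next to the ribosomal RNA, and the stalk proteins P1 and P2 are present in several copies. The genes are scattered over the genome, and their transcripts are among the most abundant of a growing cell. Most of the mRNAs begin with a C followed by a run of pyrimidines, the 5′ terminal oligopyrimidine or TOP motif, through which mTOR signalling sets their translation.

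The listed transcription start was inspected for this motif in RefSeq promoter sequences (build GRCh38.p14), in which 69 of the 86 genes had an entry. A C followed by at least 4 C or T bases, read on the transcribed strand from the first base of the transcript, was present at a listed start of 48 of these 69 genes (69.6%). Among all 27305 genes with a listed promoter the share was 5.14%. The large subunit had it in 29 of 42 genes, the small subunit in 19 of 27, and the paralogs in 1 of 5. The following 6 windows, from 25 bases before to 14 bases after the listed start, are shown because these genes recur in the results, and the capitals mark the pyrimidine run that begins at the start.
RPS6: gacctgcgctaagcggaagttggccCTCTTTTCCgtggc
RPL13A: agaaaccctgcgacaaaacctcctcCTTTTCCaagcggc
RPL34: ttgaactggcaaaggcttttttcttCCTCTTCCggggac
RPL21: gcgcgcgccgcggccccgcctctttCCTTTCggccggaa
RPS26: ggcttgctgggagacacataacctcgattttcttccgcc
RPL32: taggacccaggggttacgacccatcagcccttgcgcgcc
The windows lie at chr9:19380223-19380261 on the minus strand (RPS6), chr19:49487583-49487621 on the plus strand (RPL13A), chr4:108620551-108620589 on the plus strand (RPL34), chr13:27251533-27251571 on the plus strand (RPL21), chr12:56041893-56041931 on the plus strand (RPS26) and chr3:12841552-12841590 on the minus strand (RPL32). For RPS26 and RPL32 the letters did not match at the listed start, which says nothing about a start a few bases away.

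Intensities are given as log2 of the median pixel signal of a spot, the value that was deposited. This value carries no background correction and no scaling between arrays. Each gene is represented by its brightest probe. Fold changes are knockdown minus control on the log2 scale, with the standard error from limma, and a gene was called at an unadjusted p of the moderated test under 0.005. Before the results, the probes for the targeted gene bear on the labels. The brighter probe for MLLT3, the AF9 partner, measured 6.82 and 6.87 with siRNA3 and siRNA4 against 7.59 and 7.61 in the controls (log2 fold change -0.76, limma adjusted p = 0.0639), and the brightest MLL probe measured 10.55 and 10.64 against 10.95 and 11.08 (-0.41, limma adjusted p = 0.403). The other MLLT3 probe stood at -0.63, and 3 dimmer MLL probes at -0.03, 0.05 and -0.08 with overlapping groups. Which of these probes read the fusion transcript, the normal transcript or both was not examined. Of 10 monocytic and myeloid markers 9 had a probe on the array, and all 9 were well above background on 4 arrays, from 8.02 for CD14 to 16.34 for AZU1. All 3 T cell markers also passed that mark, at 5.65 to 6.29. Between 90.6% and 96.2% of the analysed spots of an array were well above background, and no spot was saturated.

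Most ribosomal protein genes were measured at the top of the scale, and their transcripts differed little between knockdown and control cells. At the brightest probe all 86 were well above background on all 4 arrays, and 74 had a mean log2 intensity of 16 or more, a level that only 165 of the other genes reached. The transcript of 2 genes passed the threshold, RPS26 and RPL34, both lower after knockdown. These were 2.33% of the members, against 1.33% of all genes called in either direction and 0.702% called lower. No member was lower or higher at an adjusted p under 0.05 with limma, where 22 of all genes (0.123%) were, and 11 members had an unadjusted p under 0.05, all of them lower (12.8%, against 4.74% of all genes called lower at this level). The count varied with the arrays and the scaling. It rose when the array of siRNA4 was left out and fell without any of the others, though 1 group then rested on a single array. The members' median log2 fold change was then -0.149 without siRNA4, -0.069 without siRNA3, -0.106 without control siRNA1 and -0.086 without control siRNA2. With all arrays, the count of lower members was 4 with the background-subtracted signal scaled to the 75th percentile (4.65%, against 4.52% of all genes). It was 2 with quantile normalization (2.33%, against 4.19%), where 1 was higher. In either direction 3 members and 1587 of all 17938 genes passed in the latter setting. After cyclic loess normalization between arrays no member was called, against 1.19% of all genes, and 5 members were lower (5.81%, against 4.3% of all genes) and 1 was higher (against 4.43%) at an unadjusted p under 0.05. The 5 were RPS26, RPL34, RPL21, RPL13A and RPL3L and the 1 was RPL32, named here after their values were seen. RPL3L was dim, at 6.33 to 6.63 before normalization. In the unnormalized values 3.26% of all genes were higher at that level and no member was. When limma's variance model followed the intensity (a variance trend), 7 members were called, all lower (8.14%, against 1.44% of all genes), RPS26, RPL34, RPL21, RPL23, RPL13A, RPL5 and RPL35A.

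The fold changes as deposited lay mostly below 0. In the unnormalized values 73 of the 86 genes (84.9%) were lower and 13 higher, against 56.2% lower of all genes, and the median log2 fold change was -0.10, against -0.02 over all genes. Both knockdown arrays were below both control arrays in 46 members (53.5%, against 21.2% of all genes), and both were above in 1 (1.16%, against 15.0% of all genes). After cyclic loess normalization 41 members were lower and 45 higher, against 49.5% of all genes lower, with a median of 0.01. Both knockdown arrays then lay below both control arrays in 18 members (20.9%, against 20.1%) and above in 27 (31.4%, against 21.5%). With the scanner software's background-subtracted signal scaled to the 75th percentile, in contrast, 70 members were lower (81.4%, against 56.3% of all genes) with a median of -0.08, both knockdown arrays were below both control arrays in 45 (52.3%, against 23.7%) and above in 1 (1.16%, against 16.6%). The median of the group and the share of its genes that were lower thus depended on which normalization was used. Cyclic loess was fitted over all spots kept, members included. At a mean log2 intensity of 16 or more, 74 members lay beside 165 other genes. The fit can therefore take out a shift that bright genes share, and its values do not decide whether there was such a shift.

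**Figure D1:**
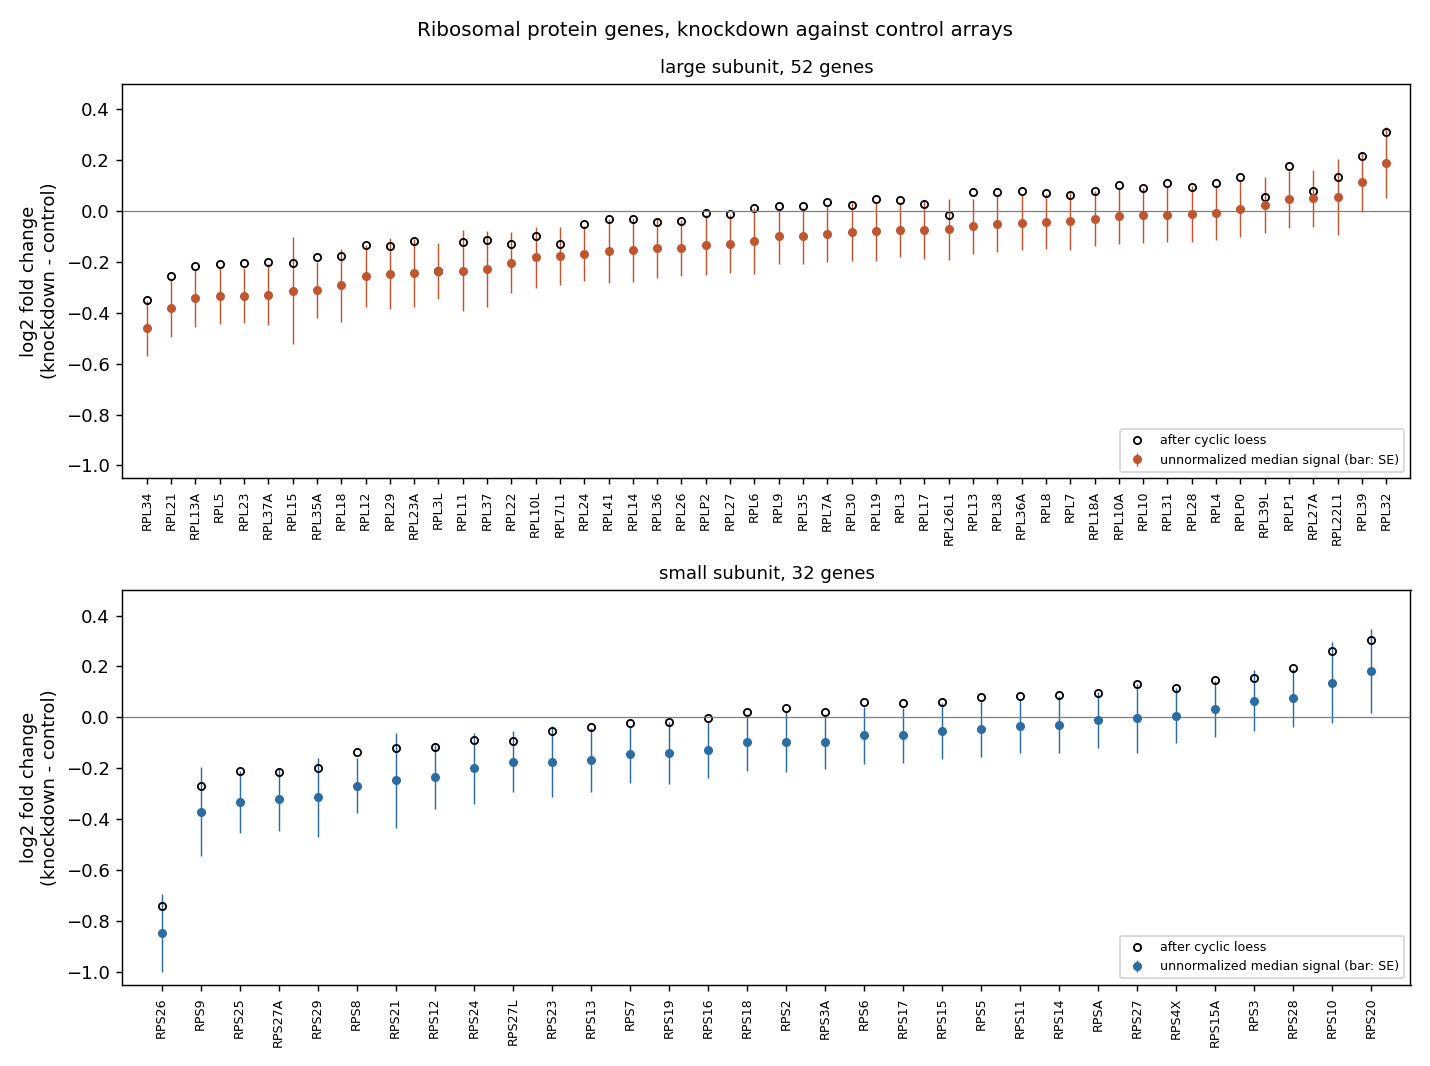
Log2 fold change, knockdown minus control, of each ribosomal protein gene at its brightest probe, sorted within the large subunit (upper panel, 52 genes) and the small subunit (lower panel, 32 genes, members on the Y chromosome left out). Filled points with SE bars are unnormalized median signals and open circles the same genes after cyclic loess, RPS26 is the lowest of all at -0.85, and nearly every open circle lies above its filled point.

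Other genes measured as brightly were lower too. Among genes at a mean log2 intensity of 16 or more, the median fold change was -0.10 for the 74 members and -0.12 for the 165 other genes, and 55.4% of the members and 52.1% of the other genes had both knockdown arrays below both control arrays. Between 14 and 16, where 5 members and 669 other genes lay, the median was -0.17 for the members and -0.08 for the other genes, and 3 of the 5 members and 34.4% of the other genes had both knockdown arrays below both controls. Under 8 the median of the other genes was 0.00. After cyclic loess the bright members had a median of 0.02 and the other bright genes of -0.01. In the unnormalized values, other genes at 16 or more thus had a median shift of similar size. By the mean pixel signal, described below, both medians were -0.12. Both knockdown arrays then lay below both controls in 70.3% of the members and 58.2% of the other genes, and above in 0 and 5 genes. With cyclic loess added the shares below were 33.8% and 23.0%, and 17 members and 30 other genes lay above. The other bright genes were not screened for function and include RPL36AL, a ribosomal protein gene.

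**Figure D2:**
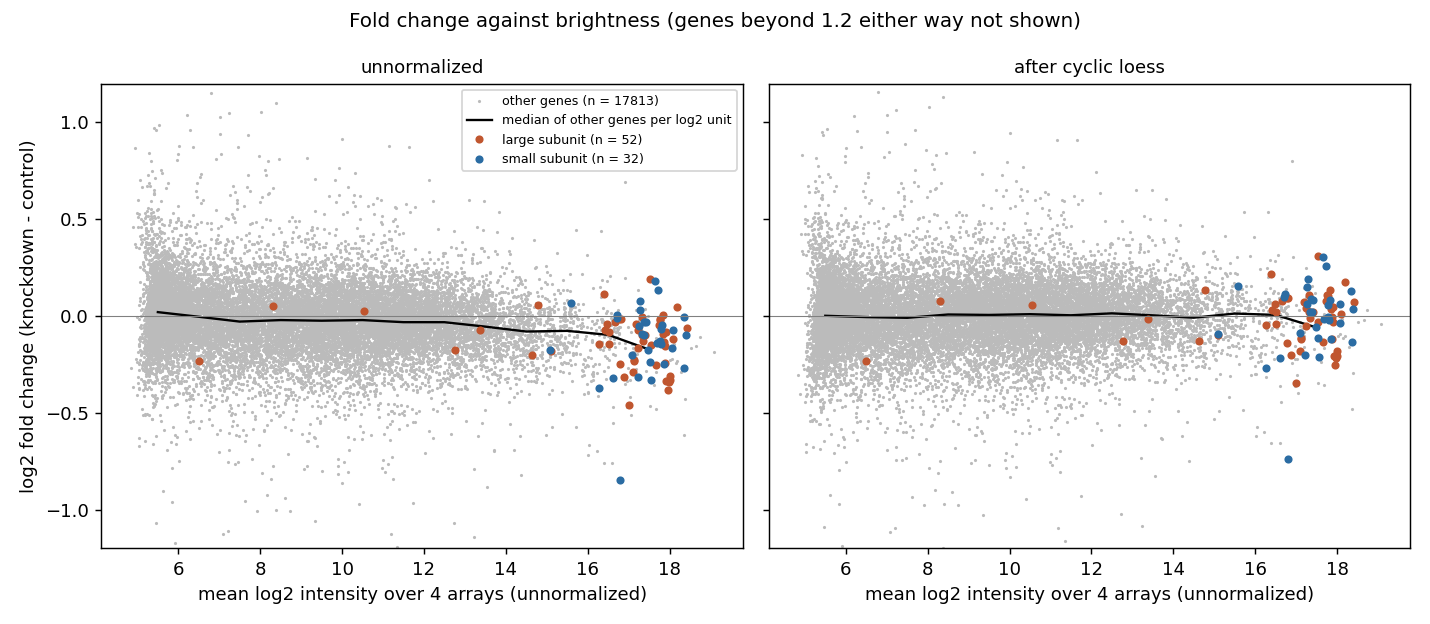
Log2 fold change against the mean log2 intensity over 4 arrays, unnormalized (left) and after cyclic loess (right), for the large subunit, the small subunit and all other genes, with the median of the other genes per log2 unit as a line. In the left panel the line sinks below 0 among bright genes, where 74 members lie at 16 or more, and in the right panel it stays close to 0 over most of the range.

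The subunits were compared gene by gene. In the large subunit 45 of 52 genes were lower, with a median log2 fold change of -0.11 and quartiles of -0.23 and -0.04. In the small subunit 28 of 34 were lower, with a median of -0.10 and quartiles of -0.19 and -0.02. Relative to the control mean the median gene of the large subunit stood at -0.15 with siRNA3 and -0.07 with siRNA4, and that of the small subunit at -0.13 and -0.04. Between the 2 control arrays the median difference was -0.01 for the large and -0.03 for the small subunit, with an SD over genes of 0.15 and 0.17. The distance between the subunits was thus smaller than that between both siRNAs in either subunit. After cyclic loess the medians were 0.00 for the large and 0.02 for the small subunit, with 26 of 52 and 15 of 34 genes lower, and each subunit held 1 of the 2 called genes of the unnormalized values.

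RPS26, a small subunit protein at the mRNA exit channel and a gene mutated in Diamond-Blackfan anemia, had the lowest fold change of the members at the brightest probe. With the mean of all probes of a gene RPS18 was lower (-0.38, against -0.35 for RPS26). A second RPS18 probe measured 17.45 with siRNA3, 16.25 with siRNA4, 17.73 with control siRNA1 and 17.29 with control siRNA2 (-0.66, SE 0.33, limma adjusted p = 0.683), whose groups overlapped, while the brightest RPS18 probe stood at -0.10. The brightest RPS26 probe measured 16.60 with siRNA3, 16.15 with siRNA4, 17.23 with control siRNA1 and 17.21 with control siRNA2. Both knockdown arrays lay below both controls, and the array of siRNA4 was the lower. The log2 fold change was -0.85 (SE 0.15), or 55.6% of the control level, with an unadjusted limma p of 4.5e-04 and an adjusted p of 0.152. In bulk RNA, fewer cells with the transcript and less of it per cell cannot be told apart. After cyclic loess it was -0.74 with an unadjusted p of 0.0073, which misses the threshold of the call. A second probe of RPS26 measured 14.57, 14.70, 14.27 and 14.90 in the same order, with overlapping groups and a log2 fold change of 0.05 (SE 0.19). The remaining probe, a dim one, measured 6.86, 6.81, 7.11 and 7.07, a log2 fold change of -0.25 (SE 0.11). The brightest probe lies at chr12:56437923-56437982, the second at chr12:56437160-56437219 and the dim one at chr12:56435739-56435798 (hg19), and the difference between the probes was not tested.

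RPL34, a large subunit protein, was the other called gene. Its brightest probe measured 16.80 with siRNA3, 16.75 with siRNA4, 17.23 with control siRNA1 and 17.25 with control siRNA2. Within each group these values differed by less than the distance between groups, and the log2 fold change was -0.46 (SE 0.11, limma adjusted p = 0.277), or 72.7% of the control level. After cyclic loess it was -0.35 with an unadjusted p of 0.0098, no longer called. Several further settings, given in the last section, gave smaller falls still. The second RPL34 probe, which lies in an upstream part of the gene, measured 15.53, 15.70, 15.63 and 15.65. Here the groups overlapped, with a log2 fold change of -0.03 (SE 0.12). The probes are printed because their readings differ.
RPL34, brightest probe: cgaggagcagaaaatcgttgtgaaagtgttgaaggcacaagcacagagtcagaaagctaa
RPL34, second probe: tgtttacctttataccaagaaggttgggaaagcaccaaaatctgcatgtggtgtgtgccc
They lie on the plus strand at chr4:109546305-109546364 and chr4:109543285-109543344 in hg19, the build of the deposited probe coordinates.

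RPL5 and RPL11, which form a complex with 5S ribosomal RNA and bind MDM2 when ribosome assembly is disturbed, were lower as well without passing the threshold at the brightest probe. RPL5 measured 17.81 and 17.70 with siRNA3 and siRNA4 against 18.09 and 18.09 in the controls, a log2 fold change of -0.33 (SE 0.11, limma adjusted p = 0.501). RPL5 has 3 probes, and both knockdown arrays were below both control arrays at each. The second measured 17.36 and 17.36 against 17.86 and 17.73, with a log2 fold change of -0.44 (SE 0.11, limma adjusted p = 0.342) and an unadjusted p of 0.0039, under the threshold of the call. The remaining probe had a log2 fold change of -0.17 (SE 0.13). After cyclic loess the 3 values were -0.21, -0.31 and -0.10, none of them called.
RPL5, brightest probe: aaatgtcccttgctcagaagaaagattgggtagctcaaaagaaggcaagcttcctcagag
RPL5, second probe: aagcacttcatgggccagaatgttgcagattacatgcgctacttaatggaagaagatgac
The first lies at chr1:93307337-93307396 and the second at chr1:93303074-93303132 on the plus strand (hg19). RPL11 measured 17.25 with siRNA3, 16.77 with siRNA4, 17.26 with control siRNA1 and 17.24 with control siRNA2. By this median signal only the array of siRNA4 stood apart, the groups overlapped, and the log2 fold change was -0.23 (SE 0.16). By the mean pixel signal, described below, both knockdown arrays lay below both controls, at 137354 and 119803 units against 157555 and 153679. The RPL11 log2 fold change was then -0.28 (unadjusted limma p of 0.041).

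RPL13A, which besides its place in the ribosome is part of a complex that silences inflammatory mRNAs and is often chosen as a reference gene, measured 17.76 and 17.87 against 18.18 and 18.13. The log2 fold change was -0.34 (SE 0.11, limma adjusted p = 0.490) and -0.22 after cyclic loess. Its other probes had log2 fold changes of -0.13 and -0.28, and at each of the 3 both knockdown arrays lay below both controls. RPL21, of the large subunit, measured 17.71 and 17.82 against 18.14 and 18.16 (log2 fold change -0.38, SE 0.11, limma adjusted p = 0.424) and had 9 probes, all with a fold change below 0, from -0.38 to -0.08. In 6 of the 9 the groups did not overlap. RPL21 has many processed pseudogenes, and 1 of its probes was placed on chromosome 10 and not on 13, so these probes may share transcripts. RPS9, of the small subunit, was the remaining gene of the 6 with the lowest fold changes and no overlap, at 15.81 and 16.37 against 16.52 and 16.40 (log2 fold change -0.37, SE 0.17, limma adjusted p = 0.659), with the array of siRNA3 alone far below. By the mean pixel signal, described below, RPS9 measured 64104 and 70067 units against 69068 and 70229, and the groups overlapped.

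**Figure D3:**
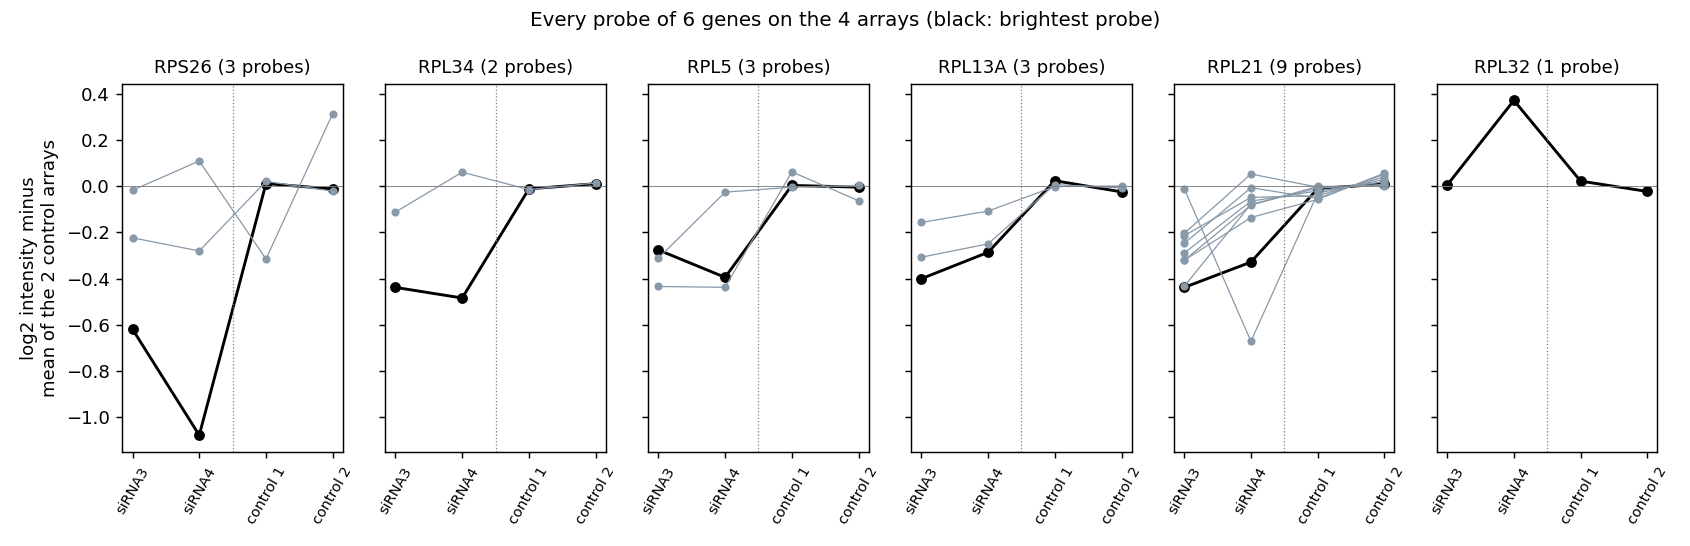
Log2 intensity of every probe of RPS26, RPL34, RPL5, RPL13A, RPL21 and RPL32 on the arrays of siRNA3, siRNA4, control siRNA1 and control siRNA2, each as the difference from the mean of the 2 control arrays, with the brightest probe in black. The probes of RPL5 and RPL13A lie below 0 on both knockdown arrays, whereas those of RPS26 and RPL34 part from each other.

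RPL39, a short protein of the peptide exit tunnel, was the 1 member with both knockdown arrays above both controls. It measured 16.35 and 16.54 against 16.35 and 16.32, a log2 fold change of 0.11 (SE 0.12, limma adjusted p = 0.863), and the array of siRNA3 lay within 0.01 of a control. Its 3 other probes had values of 0.04, -0.01 and -0.09. The highest fold change among the members was that of RPL32, of the large subunit, which measured 17.44 with siRNA3, 17.81 with siRNA4, 17.46 with control siRNA1 and 17.41 with control siRNA2, so that only siRNA4 stood apart (0.19, SE 0.14).

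The stalk proteins, which recruit translation factors to the ribosome, were close to the control level. RPLP0, the base of the stalk, measured 17.81 and 17.87 against 17.85 and 17.81 (0.01, SE 0.11). RPLP1 measured 18.27 and 18.16 against 18.18 and 18.16 (0.04, SE 0.11), and RPLP2 17.76 and 17.84 against 17.84 and 18.03 (-0.13, SE 0.12). A second RPLP0 probe was printed on 10 spots, whose fold changes had a mean of 0.00 and an SD of 0.18 over spots of the same RNA.

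Small subunit genes with known roles in disease or signalling mostly had fold changes close to or under their standard error. RPS6, the substrate of the S6 kinases, was printed on 10 spots and measured 18.10 and 18.00 against 18.14 and 18.10 (-0.07, SE 0.11), with an SD of 0.08 over its spots. RPSA, also known as the laminin receptor, measured 16.66 and 16.75 against 16.69 and 16.74 (-0.01, SE 0.11). RPS3, which takes part in DNA repair and NF-kappaB signalling, had a log2 fold change of 0.07 (SE 0.12). RPS14, the gene of the 5q- syndrome, measured 17.31 and 17.41 against 17.42 and 17.36 (-0.03, SE 0.11), and RPS19, the gene most often mutated in Diamond-Blackfan anemia, 17.50 and 17.74 against 17.73 and 17.79 (-0.14, SE 0.12). In all of these but RPS6 the groups overlapped. RPS4X, encoded on the X chromosome, stood at 0.01 (SE 0.11). RPS27A, made as a fusion with ubiquitin, was the lowest of these at 16.34 and 16.57 against 16.72 and 16.83 (-0.32, SE 0.12, limma adjusted p = 0.571).

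In the large subunit RPL10, a late-joining protein mutated in T cell leukemia, measured 16.76 and 16.83 against 16.81 and 16.82 (-0.02, SE 0.11). RPL41, the smallest ribosomal protein, measured 17.79 and 17.84 against 17.84 and 18.11 (-0.16, SE 0.13), with control siRNA2 alone above the other arrays. By the mean pixel signal, described below, both controls lay above both knockdown arrays, at 227956 and 235304 units against 259218 and 266754 (-0.18).

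None of the paralogs was called. Their fold changes ran from -0.24 to 0.05, with 5 of 7 lower. RPL3L, known from muscle, measured 6.44 and 6.33 against 6.61 and 6.63 (-0.24, SE 0.11, limma adjusted p = 0.660), while RPL3 had a log2 fold change of -0.07 (SE 0.11). The RPL3L values are dim, next to 5.65 to 6.29 for the T cell markers, and carry no background correction. RPL22L1 stood at 0.05 (SE 0.15) and RPL22, often deleted in T cell leukemia, at -0.20 (SE 0.12). RPL7L1 and RPL7 had -0.18 (SE 0.11) and -0.04 (SE 0.11), RPL10L had -0.18 (SE 0.12), and RPL26L1 and RPL26 had -0.07 (SE 0.12) and -0.14 (SE 0.11). RPL39L had 0.02 (SE 0.11), and RPS27L, a target of p53, and RPS27 had -0.17 (SE 0.12) and 0.00 (SE 0.14). No difference within a pair was tested. RPL36A had -0.05 (SE 0.11), but its probe was placed on chromosome 11 while RefSeq places the gene on X, so that its identity is uncertain. RPL36AL, a paralog that the naming rule does not take in, stood at -0.06 (SE 0.11).

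The fold changes were set beside the TOP motif at the listed start. The 48 genes with the run had a median log2 fold change of -0.14, from -0.46 to 0.14, and the 21 without it of -0.08, from -0.85 to 0.19. After cyclic loess the medians were -0.01 and 0.02, and by the mean pixel signal, described below, both were -0.11. RPL34 is among the genes with the run and RPS26 among those without.

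Probes of the same gene often disagreed. Of the 86 members 41 had several probes, 118 in all, and all probes were lower in 23 of these genes and of both signs in 18. The median range between the probes of a gene was 0.20, larger than the size of the group's median fold change. Of all 163 probes of members 134 were lower (82.2%, against 55.5% of all 26219 probes), and 3 were called (1.84%, against 1.32% of all probes), the brightest of RPS26 and RPL34 and the second of RPL5. The lowest of these probes was a further probe of RPL23A at 15.85 with siRNA3, 14.29 with siRNA4, 16.17 with control siRNA1 and 16.14 with control siRNA2 (log2 fold change -1.09, SE 0.39, limma adjusted p = 0.535), where siRNA4 alone made most of the difference and the brightest RPL23A probe had -0.24 (SE 0.13). The brightest probes of 7 members share a run of at least 25 bases with a probe of another name, RPS10 with that of RPS10P7, and their values may include other transcripts.

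The deposited median signals of these bright spots were not spread evenly over the scale. Of the 416 values of the members' brightest probes (104 spots on 4 arrays), 50 lay between 100000 and 120000 units, 1 between 120000 and 140000, and 38 between 140000 and 160000. A further gap lay between 180000 and 200000, with 6 values between neighbours of 53 and 22. The mean pixel signals of the same spots filled these ranges with 32, 26 and 25 values, and with 32 between 180000 and 200000. Median and mean differed by over 0.1 on the log2 scale in 81 of 416 values (19.5%), against 21.9% for other spots of a mean log2 of 16 or more and 4.65% for spots between 10 and 16. RPL15 is an example, named after its values were seen, in which the median signals were 108489 and 107718 against 174300 and 103488 and the mean signals 129021 and 132630 against 136434 and 136398. With the median the array of control siRNA1 stood apart, with the mean no array did, and the log2 fold change was -0.31 by the median and -0.06 by the mean.

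**Figure D4:**
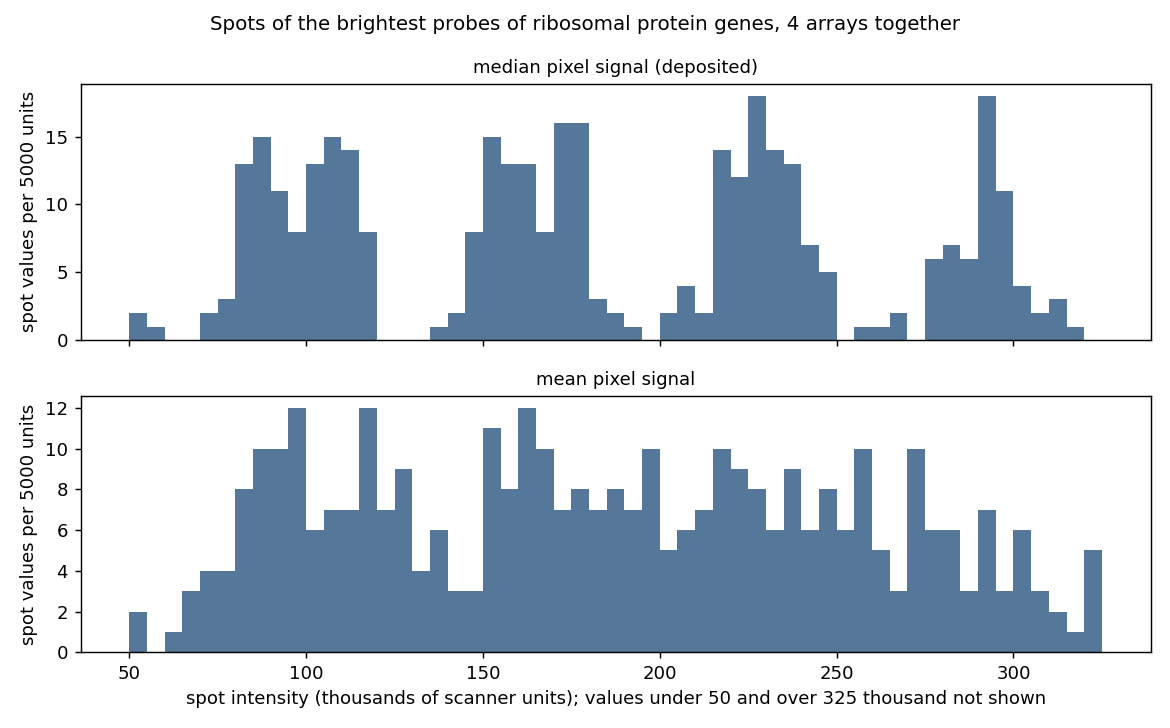
Number of spot values per 5000 scanner units for the brightest probes of ribosomal protein genes on the 4 arrays together, as the deposited median pixel signal (upper panel) and the mean pixel signal (lower panel). The median signals fall into separate clusters with gaps between 120000 and 140000 and between 180000 and 200000 units, which the mean signals fill.

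By the mean pixel signal, the fold change of 16 members differed by over 0.1 from that of the median, and the sign turned in 7. RPS9 had -0.06 in place of -0.37 and RPL32 -0.01 in place of 0.19, while RPS26 stood at -0.71 (unadjusted p of 0.0011, the 1 member called, against 1.53% of all genes) and RPL34 had -0.32 (unadjusted p of 0.017, not called). The control arrays also lay closer together. The SD over members of the difference between the 2 control arrays was 0.16 by the median signal and 0.09 by the mean. The group as a whole was unnormalized at a median of -0.11, with 78 of 86 members lower (against 56.5% of all genes), and after cyclic loess at 0.00, with 42 of 86 lower (against 49.9%). In the latter setting both knockdown arrays were below both control arrays in 31 members (36.0%, against 20.6%) and above in 18 (20.9%, against 21.7%).

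Genes that make or serve the ribosome, from lists written from textbook knowledge, were similarly close to 0, and no gene of any list was called in the unnormalized median signals or after cyclic loess. Beside the 56.2% of all genes that were lower, 12 of 18 other mRNAs with a TOP motif were lower (median -0.07), and 3 were lower at an unadjusted p under 0.05, PABPC1 (-0.33), BTF3 (-0.32) and NACA (-0.29), where 4.74% of all genes were. At that level 1 of 42 translation factors, 2 of 93 biogenesis factors, 2 of 20 genes of the RNA polymerase I list, 3 of 75 mitochondrial ribosomal protein genes and none of 21 growth regulators were lower, and no gene of these lists was higher. After cyclic loess 2 biogenesis factors were higher, GTPBP4 (0.22) and WDR36 (0.27), named after their values were seen. At that level 1 biogenesis factor, 2 of 18 other TOP mRNAs, 2 of 20 genes of the RNA polymerase I list, 1 of 42 translation factors, 1 of 21 growth regulators and 1 of 75 mitochondrial ribosomal protein genes were then lower, against 4.3% of all genes. Of 42 tested translation factors 32 were lower (median -0.09), of 93 ribosome biogenesis factors 66 (median -0.07), and of 75 mitochondrial ribosomal protein genes 62 (median -0.09). In the list of RNA polymerase I and its factors 14 of 20 were lower (median -0.08), with POLR1C, a subunit shared with RNA polymerase III, at 11.61 and 11.32 against 11.98 and 11.91 (-0.48, SE 0.13, limma adjusted p = 0.382), which passed the threshold of the call by the mean pixel signal (unadjusted limma p of 0.0026). Of 21 growth regulators of ribosome synthesis 13 were lower (median -0.04). MYC, which was not among them, measured 13.43 and 13.39 against 13.20 and 13.58 (0.02, SE 0.14), so that the controls enclosed both knockdown arrays. After cyclic loess 8 of 18 other TOP mRNAs, 25 of 42 translation factors, 54 of 93 biogenesis factors, 53 of 75 mitochondrial ribosomal protein genes, 12 of 20 genes of the RNA polymerase I list and 10 of 21 growth regulators were lower, against 49.5% of all genes, and the medians of these lists lay between -0.05 and 0.03.

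With 2 arrays per group, a single value cannot reach a two-sided exact permutation p below 0.333, and a call rests on the variance that limma shares across probes. At the median standard error of the members, 0.11, a log2 fold change of 0.42 in either direction was needed for a call, and with the variance trend changes down to -0.31 (RPL35A) were called on the same arrays.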

How the data were processed

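Spots were read by the authors with Agilent Feature Extraction 10.5.1.1 (per the labels), and the deposited intensity was identical to the scanner table's median pixel signal for 100% of the spots, with no background correction or normalization. The deposited quality weights are fractions of 0, 0.5 or 1, and how they were set is not given in the sources used here. Of 43118 spots without controls, 33323 with a weight above 0 on all arrays were kept. Log2 intensities were averaged over identical spots (26219 probes), and limma 3.58.1 (R 4.3.3) was run using the weights, with the deposited values left unnormalized as in the study's methods. Adjusted p-values are Benjamini-Hochberg over all probes. The brightest probe stood for a gene, and background shares are over genes with a symbol. The accessions of all 86 members matched RefSeq with the same symbol. The fit was tested on simulated data.

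Genes named are those called, the 6 largest rises and 6 largest falls among members well above background whose groups did not overlap (only 1 rise qualified), and genes fixed by role or as paralog pairs. Members and lists were chosen with earlier results of these data known. Alternatives were quantile and cyclic loess normalization, the software's background-subtracted signal scaled to the 75th percentile, normexp (offset 50) with quantile, no weights, a filter on dim probes, a variance trend, the mean of all probes of a gene, single spots, adjusted p, and each array left out. The mean pixel signal, with and without loess, was chosen after seeing the data. No depth applies to arrays, and their number limits the precision. A list of ribosomal proteins outside the naming rule is not reported here.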

Additional observations from a re-analysis of the deposited data

How the results depend on the processing

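The number of called members was 2 in the values as reported and also without spot weights, with probes well above background and on single spots. It was 0 with quantile, cyclic loess, normexp with quantile, the background-subtracted signal, the mean of all probes of a gene, the mean pixel signal with cyclic loess, and at an adjusted p under 0.05, 1 with the mean pixel signal, and 7 (8.14% of members, against 1.44% of all genes) with a variance trend. The lost calls are those of RPS26 and RPL34, and the trend added RPL13A, RPL21, RPL23, RPL35A and RPL5. With 1 array left out, the lone array being assumed to vary like the others, the number was 0 to 1. RPS26 was called without the array of siRNA3 (-1.08) or siRNA4 (-0.62) and not without control siRNA1 (-0.84, unadjusted p of 0.026) or control siRNA2 (-0.86, unadjusted p of 0.023), and RPL34 was not called without any array (-0.48 to -0.44). Both genes were lower under every alternative run, but RPS26 stood at -0.35 with the mean of all probes, against -0.85, and RPL34, against -0.46, at -0.25 with the background-subtracted signal, -0.24 with the mean of all probes, -0.19 with normexp and quantile and -0.20 with the mean pixel signal and cyclic loess.

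The median log2 fold change of the members was 0.012 with quantile, 0.014 with cyclic loess, 0.0074 with normexp and 0.0029 with the mean pixel signal and cyclic loess, in place of -0.098. With the background-subtracted signal scaled to the 75th percentile it stayed at -0.083 (large subunit -0.085, small subunit -0.075). In the order of the first 4 settings it was 0.0052, 0.0021, 0.0074 and -0.0024 for the large subunit, in place of -0.11, and 0.023, 0.021, 0.0075 and 0.011 for the small subunit, in place of -0.096. Leaving out 1 array gave -0.149 (without siRNA4) to -0.069 (without siRNA3) for all members, -0.149 to -0.074 for the large and -0.131 to -0.040 for the small subunit. The number of members with both knockdown arrays below both controls, 46 as reported, was 15 with quantile (17.4%, against 19.6% of all genes), 18 with cyclic loess (20.9%, against 20.1%), 21 with normexp (24.4%, against 20.6%), 31 with the mean pixel signal and cyclic loess (36.0%, against 20.6%) and 57 with the mean pixel signal (66.3%, against 22.2%). Under the other alternatives with all arrays it was 45 to 48 (52.3% to 55.8%, against 21.2% to 23.7%). It was 52 without siRNA3 (60.5%, against 32.1%), 69 without siRNA4 (80.2%, against 47.0%), 57 without control siRNA1 (66.3%, against 44.3%) and 57 without control siRNA2 (66.3%, against 27.9%). Both knockdown arrays were above both controls in 1 member as reported (1.16%, against 15.0% of all genes), in 26 with quantile (30.2%, against 21.5%), 27 with cyclic loess (31.4%, against 21.5%), 20 with normexp (23.3%, against 21.3%) and 18 with the mean pixel signal and cyclic loess (20.9%, against 21.7%). They were above in 0 members with the mean pixel signal (against 15.5%) or the mean of all probes (against 15.1%). With 1 array left out it was 5 to 14 members (5.81% to 16.3%, against 21.9% to 38.3% of all genes), where the smaller number of arrays alone makes such an order more frequent. Except where a value above shows it, the cause of these changes was not tested. No paired analysis was possible because the groups share no replicate numbers.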
